A study of Mus musculus with 9 samples.

Results

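Long intergenic noncoding RNAs (lincRNAs) were examined in mouse cardiosphere-derived cells. The set comprised every gene that the deposited annotation calls a lincRNA and that had at least 50 counts in all 3 libraries of at least 1 group. The imprinted RNAs H19, Meg3 and Rian were left out, and of these Meg3 alone met the threshold. These criteria gave 80 of the 5559 annotated lincRNAs, among 54532 genes in the table. Because the members were chosen by their counts in these same libraries, their presence and their levels are a description and were not tested.

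The 9 libraries came from cells of C57BL/6 mice grown from heart explants, with 3 libraries in each group. P0 libraries held untreated primary cells, named pECDCs by the study (primary epicardium-derived cardiosphere-derived cells). The labels place them at passage 0, whereas the study's culture methods give passage 3. P30 libraries held iECDCs, the same kind of cells immortalized with a lentivirus that expresses the human telomerase catalytic subunit (hTERT) from a CMV promoter, untreated and at passage 30. SBT libraries held, by the labels, such immortalized cells at passage 30 after 3 days with SB431542, a small molecule that blocks signalling by TGF-β type I receptors. The study's methods instead describe the SB431542-treated sample as an epithelial clone derived from pECDCs. The source cells and the time of treatment of the SBT group are therefore not certain, and SBT is used below as a name for these 3 libraries. Mouse age at isolation is given by the study as 6 weeks, and the labels name the ventricle where the study names the ventricular epicardium. Nothing in the labels says whether the libraries of a group came from separate cultures or animals, so p-values measure the spread between these libraries.

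A lincRNA is transcribed and processed much like a messenger RNA but is not known to code for a protein. Some lincRNAs hold nuclear bodies together, some bind microRNAs or RNA-binding proteins in the cytoplasm, and some are mainly a vehicle for small nucleolar RNAs or microRNAs cut from their introns or exons. Many start close to a protein-coding gene that encodes a developmental regulator, and in the heart the lincRNAs beside Hand2 and Tbx5 are of this kind.

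Sequence features that underlie the known roles of members described below were read from the reference. In 2900097C17Rik, the RNA also named Norad, which binds the translational repressors Pumilio 1 and Pumilio 2, the longest GENCODE M21 transcript of 4915 bases held the Pumilio motif TGTANATA 11 times on the transcribed strand, or 2.24 per kilobase. The longest transcripts of the other 79 lincRNAs together held 31 such motifs in 230743 bases, 0.134 per kilobase, in 25 of the 79. The pair of motifs that lie closest together in Norad is shown with the motifs in capitals (GRCm38, chr2:156390512-156390548, minus strand, transcript positions 2432 to 2468).
Norad: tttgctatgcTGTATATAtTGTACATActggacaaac
In 1700020I14Rik, also named Oip5os1 or Cyrano, which is known for a site with extensive pairing to miR-7, the 8300-base transcript held 2 matches to the seed of miR-7 (bases 2 to 8). Capitals mark the seed in the microRNA and the paired letters in the sites. At the site from 2930 to 2959 (chr2:119602132-119602161, plus strand), a further run of 13 letters paired with bases 11 to 23 of the microRNA, and at the site from 740 to 769 (chr2:119599942-119599971) no such run was found.
mmu-miR-7a-5p: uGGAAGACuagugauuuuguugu
Cyrano site at 2930: taagaACAACAAAATCACcaatGTCTTCCa
Cyrano site at 740: gacttcaggttttttttttaatGTCTTCCa

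Of the 80 lincRNAs, 9 enclose annotated small nucleolar RNA or microRNA genes on their own strand. Mir17hg, the host of the miR-17-92 cluster on chromosome 14, carries 6 microRNAs whose main mature forms fall into 4 seed classes. Capitals mark the seed, bases 2 to 8. miR-17 and miR-20a share AAAGUGC, miR-19a and miR-19b share GUGCAAA, and miR-18a and miR-92a have seeds of their own within the cluster. AL805899.1, on chromosome 4, encloses miR-31, whose seed is none of these. The sequences are RefSeq entries on GRCm38.p6.
mmu-miR-17-5p: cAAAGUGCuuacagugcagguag
mmu-miR-20a-5p: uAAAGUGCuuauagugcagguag
mmu-miR-19a-3p: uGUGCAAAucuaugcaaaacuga
mmu-miR-19b-3p: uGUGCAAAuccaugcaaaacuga
mmu-miR-18a-5p: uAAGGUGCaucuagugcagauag
mmu-miR-92a-3p: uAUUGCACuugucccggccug
mmu-miR-31-5p: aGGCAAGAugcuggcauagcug

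Read counts per library ranged from 16568306 to 23951392. The third P30 library and the second SBT library stood apart from the others of their groups. Between 2 P0 libraries the chi-square per degree of freedom over all genes was at most 4.23, and it was 4.61 between P30 libraries 1 and 2 and 3.79 between SBT libraries 1 and 3. It was 24.9 and 30.8 between P30 library 3 and the others of its group, and 70.3 and 71.5 for SBT library 2. Scaled to library size, SBT library 2 lay between the mean of P30 and the mean of the other SBT libraries for 44 of the 80 lincRNAs. The same share was not counted over all genes, so nothing particular to the lincRNAs can be read from it. The counts of calls are also given without P30 library 3 or SBT library 2, and so are the values of some genes. All 11 mesenchymal markers had a mean of at least 1 FPKM (fragments per kilobase of exon, scaled to the size of the library) in each group, and none of 5 endothelial and none of 4 epithelial markers did. For haematopoietic cells 2, 2 and 1 of 4 markers did in P0, P30 and SBT, for cardiomyocytes 0, 1 and 0 of 5, and for epicardial cells 0, 0 and 2 of 4. The summed FPKM of 6 TGF-β target genes was 2293 to 2358 in P0, 2845 to 4317 in P30 and 249 to 640 in SBT. Mitochondrial genes took 1.16% to 1.40% of counts in P0 and P30 and 1.52% to 1.77% in SBT. The part of these shifts in the results below was not tested. In bulk RNA, fewer cells of a type and less RNA per cell cannot be told apart.

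The 80 lincRNAs took 0.158% ± 0.00569 of all counts in P0, 0.157% ± 0.00529 in P30 and 0.196% ± 0.0193 in SBT (mean ± SD, n = 3 libraries each). Per library the share was 0.164%, 0.156% and 0.153% in P0, 0.163%, 0.153% and 0.155% in P30, and 0.182%, 0.188% and 0.218% in SBT. The SBT libraries all lay above the others. Without Malat1 and Gm42047, the members with the most counts, the shares were 0.109% ± 0.00200, 0.106% ± 0.00379 and 0.118% ± 0.0115, and the SBT libraries (0.114%, 0.109% and 0.131%) overlapped P0 and P30. As a share of the sum of FPKM, which corrects for gene length, the means were 0.180%, 0.189% and 0.182%, and the groups overlapped.

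Most members were expressed at a low level. Their median of the group mean was 2.13 FPKM in P0, 2.20 in P30 and 1.92 in SBT, against 7.49, 7.49 and 7.60 for the 10946 protein-coding genes that met the same count threshold. In the 3 groups, 13, 15 and 13 of the 80 reached 10 FPKM. Malat1, a nuclear speckle RNA, reached 49.4 ± 10.1 FPKM in P0, 42.8 ± 3.4 in P30 and 78.0 ± 12.4 in SBT. Gm10076, a gene RefSeq lists as a pseudogene, reached 53.7 ± 14.6, 66.9 ± 26.6 and 65.3 ± 27.6 FPKM, and its libraries overlapped those of Malat1 in P0, P30 and SBT. Snhg6, Epb41l4aos, Norad, 3300005D01Rik, Gm42047 and Wincr1 made up the rest of the top 8 in P0.

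**Figure D1:**
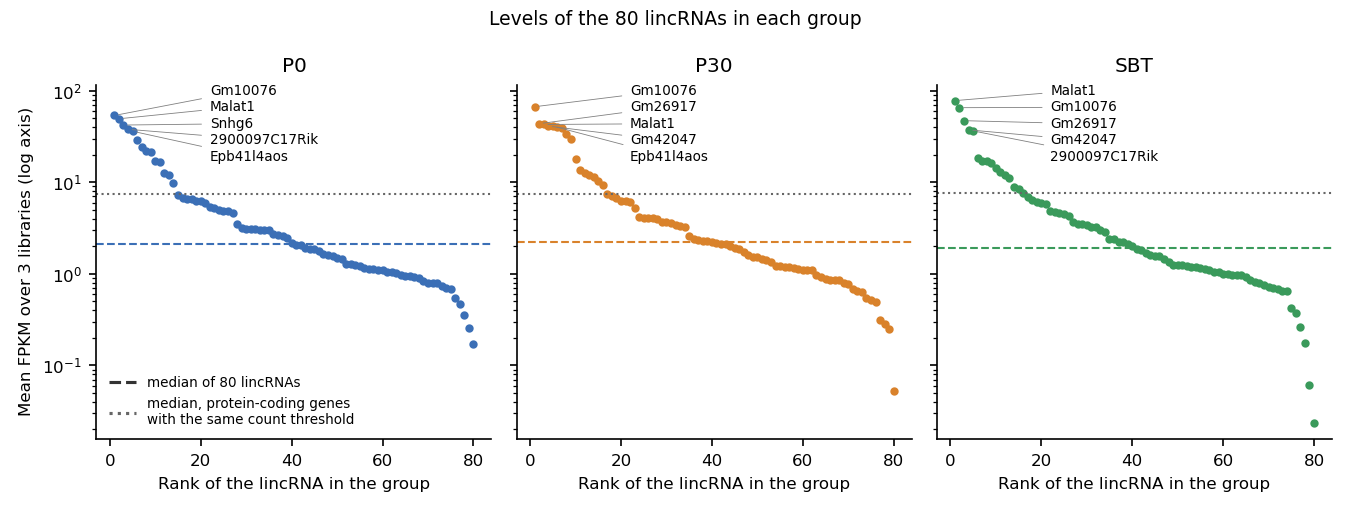
Mean FPKM over 3 libraries (log axis) of the 80 lincRNAs, ordered by rank within P0, P30 and SBT, each point 1 lincRNA with the 5 highest named. The dashed line is the median of the 80 (2.13, 2.20 and 1.92 FPKM) and the dotted line that of protein-coding genes with the same threshold (7.49, 7.49 and 7.60 FPKM), so most lincRNAs sit below the dotted line.

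The threshold was met in all 3 groups by 44 of the 80 (55.0%). It was met by 12 only in P0, 2 only in P30 and 7 only in SBT, by 7 in P0 and P30, by 8 in P0 and SBT, and by none in P30 and SBT without P0. In all, 45.0% of the lincRNAs and 7.65% of the 10946 protein-coding genes missed the threshold in some group. The lincRNAs also had fewer counts, and the part of their lower level in this difference was not tested. The members nearest the threshold were 2010300F17Rik (51 counts in the lowest library of its best group), 2700038G22Rik and Gm8066 (52 each). The lincRNAs just outside it were Gm16973 (49), BC002059 and Gm30074 (48 each).

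The annotation places 50 of the 80 clear of any other gene except small RNAs. 25 overlap a gene on the opposite strand and 9 a gene on the same strand, and for these the counts may hold reads of the partner, since the strand setting of the counting is not given in the sources used here. The nearest protein-coding gene overlapped 12 of the 80 and lay within 10000 bases of 46, at a median distance of 4342.5 bases. In 14 the start lay within 2000 bases of a protein-coding start with the genes pointing apart. Exonic length ran from 384 bases to 20771 (Neat1) with a median of 2789.5, and in 11 members the exons of all transcripts merged into 1 block. In GENCODE M21 78 are still lincRNAs, and 4833418N02Rik and Gm1976 are processed transcripts. RefSeq describes some as protein-coding, among them Zfp469 and 1810058I24Rik.

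Differences between groups were tested only for members with at least 50 counts in every library of both groups compared. In a member that met the threshold through only 1 of them, the choice itself favoured a difference. The first question was how immortalized passage 30 cells differed from primary cells. Of the 51 lincRNAs that could be tested between P30 and P0, 5 were higher in P30, 5 were lower and 41 did not pass the test (edgeR quasi-likelihood test, Benjamini-Hochberg adjusted over 13752 genes). Among all genes tested 16.4% passed. Among the 10755 with 50 counts in all 6 libraries 8.13% were higher and 8.20% lower, against 9.80% of the 51 lincRNAs in each direction. The median log2 fold change of the 51 was 0.08, and that of all such genes was 0.01. Without P30 library 3, 22 of the 51 passed (13 higher, 9 lower), among them all 10 in the same direction, and without P0 library 3 the count was 6.

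Among the lincRNAs higher in P30, Gm44275 (chr6:135312155-135319561, minus strand) had 97, 63 and 87 counts in P0 and 179, 180 and 167 in P30. All P30 libraries lay above P0, and the log2 fold change was 1.48 ± 0.145 (SE, adjusted p = 0.000268, edgeR with Benjamini-Hochberg adjustment). Gm6093 (chr13:33562486-33569317, minus strand) measured 2.38, 2.61 and 2.44 FPKM in P0 and 7.12, 5.84 and 5.58 in P30. Its groups did not overlap, with a log2 fold change of 1.31 ± 0.119 (adjusted p = 0.000165, edgeR). Gm42047, which lies inside the long read-through gene model Gm20388 on chromosome 8 on the same strand, measured 24.8, 24.8 and 23.4 FPKM in P0 and 42.3, 41.2 and 39.9 in P30. This narrow spread gave the smallest adjusted p-value of the 51, with a log2 fold change of 0.74 ± 0.0606 (adjusted p = 9.04e-05, edgeR). 3300005D01Rik rose by 0.44 ± 0.0685 on the log2 scale (adjusted p = 0.00320, edgeR). All 4 passed in each of the 14 alternative fits.

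Ptgs2os2, the RNA known as lincRNA-Cox2 for its neighbour Ptgs2 and for its induction in inflammation, had 216, 179 and 176 counts in P0 and 401, 395 and 158 in P30. P30 library 3 was far below the other P30 libraries and below all P0 libraries in counts, although in FPKM (11.4, 13.8 and 5.89 against at most 5.15 in P0) it still lay above P0. The log2 fold change was 1.09 ± 0.261 (adjusted p = 0.0223, edgeR), and 1.36 without that library. It passed in 7 of the 14 alternatives.

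Neat1, the scaffold of nuclear paraspeckles, measured 4.48, 4.69 and 5.22 FPKM in P0 and 3.28, 2.25 and 2.17 in P30. It was the lincRNA with the largest decrease among the 5, with a log2 fold change of -0.91 ± 0.147 (adjusted p = 0.00377, edgeR). Norad fell by 0.37 on the log2 scale (SE 0.0736, adjusted p = 0.00941, edgeR), from 36.2, 38.2 and 39.2 FPKM to 31.8, 29.4 and 27.2. Dubr, an RNA studied in muscle differentiation, went from 5.19, 5.24 and 5.38 FPKM to 4.0, 4.17 and 3.92, a log2 fold change of -0.40 ± 0.0752 (adjusted p = 0.00767, edgeR). In each of these RNAs every P30 library lay below every P0 library. Snhg18, a small nucleolar RNA host, had a log2 fold change of -0.57 ± 0.0872 (adjusted p = 0.00277, edgeR) and is described with its neighbour below. 5033428I22Rik, the lincRNA Handsdown beside the heart transcription factor gene Hand2, measured 0.961, 0.872 and 0.873 FPKM in P0 and 0.629, 0.511 and 0.773 in P30. Its log2 fold change of -0.52 ± 0.152 only just passed (adjusted p = 0.0476, edgeR), and it passed in 5 of the 14 alternatives.

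**Figure D2:**
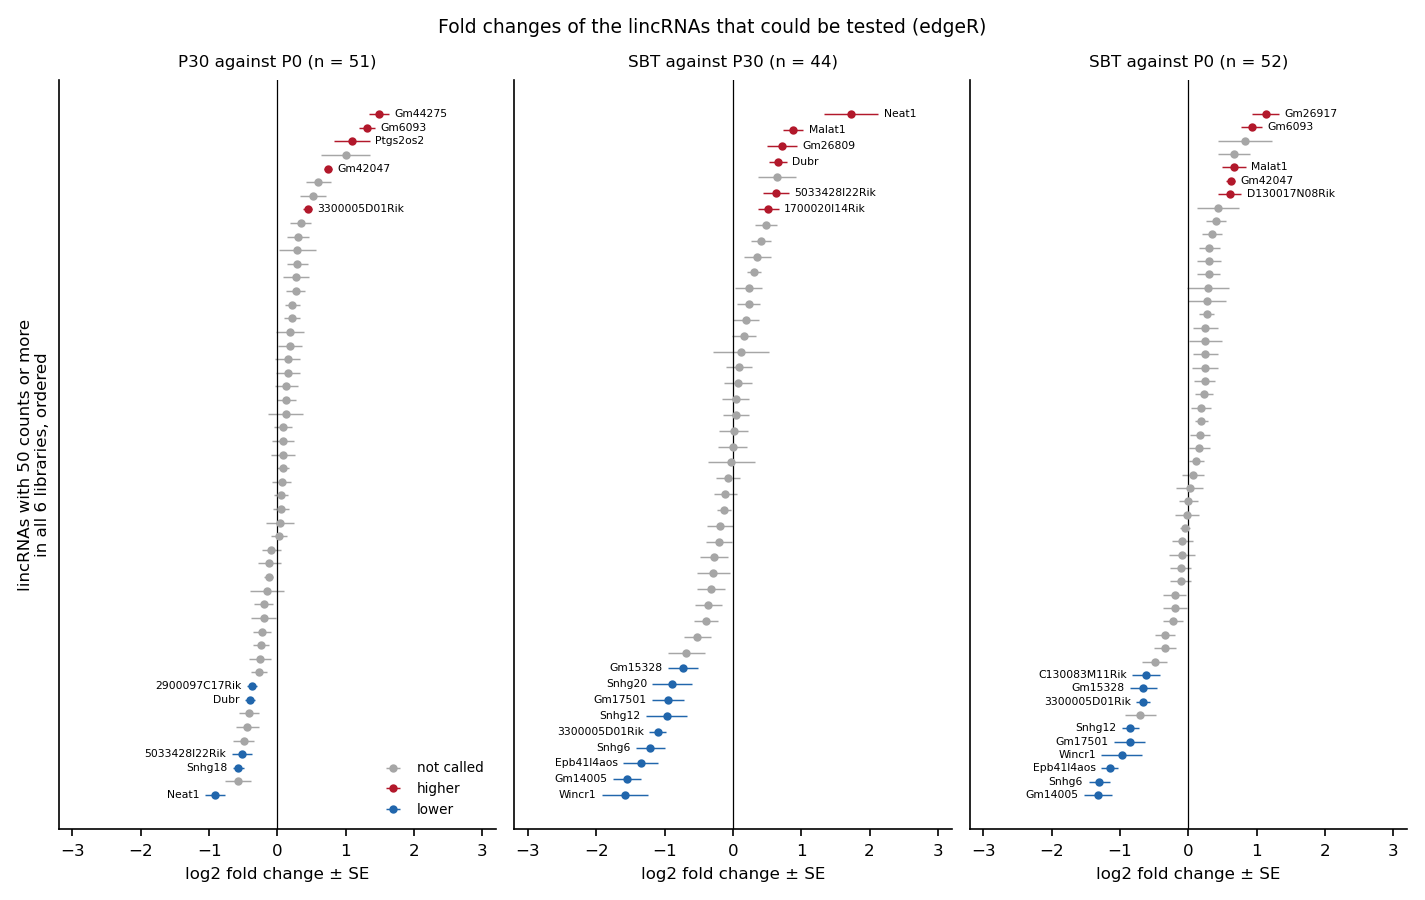
log2 fold change with its standard error (edgeR, 3 libraries a group) of the lincRNAs with at least 50 counts in all 6 libraries of a comparison, 51, 44 and 52 in number, ordered within each panel. Red points were higher and blue points lower at an adjusted p under 0.05 (5 and 5, 6 and 9, 5 and 9), and grey points did not pass.

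Some lincRNAs met the threshold in only 1 of these groups, so their contrast was favoured by the choice and carries no test. AI427809, the lincRNA Mexis known for its link to the cholesterol transporter gene Abca1, had 72, 61 and 66 counts in P0, 5, 1 and 1 in P30 and 15, 6 and 27 in SBT. Its FPKM means were 1.24, 0.0526 and 0.371. In the other direction stood 2 lincRNAs that met the threshold in P30 alone. 2010300F17Rik, which overlaps the T cell adaptor gene Skap1, had 18, 6 and 10 counts in P0, 55, 57 and 51 in P30 and 1, 3 and 0 in SBT. With SBT set at 3 counts in each library, P30 was at least 18.6-fold higher and P0 at least 3.03-fold higher than SBT. Gm15228, on the X chromosome, had 31, 15 and 38 counts in P0, 121, 93 and 78 in P30, and 0, 12 and 1 in SBT. In both, P30 lay above P0 and P0 above SBT in every library.

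The SBT libraries were then compared with P30, the group that the labels make their untreated control. Of the 44 lincRNAs that could be tested, 6 were higher in SBT, 9 were lower and 29 did not pass (edgeR, Benjamini-Hochberg adjusted over 13559 genes). Among all genes tested 30.0% passed. With 50 counts in all 6 libraries, 15.2% of 10583 genes were higher and 15.2% lower, against 13.6% and 20.5% of the 44 lincRNAs. The median log2 fold change was -0.01 for the 44 and -0.03 for all such genes. Without SBT library 2, 23 passed (11 higher, 12 lower), all 15 among them. Without P30 library 3, 11 passed and 9 of the 15 were still called, the others being Cyrano, Gm15328, Gm17501, Gm26809, Neat1 and Snhg20. Without SBT library 1 or 3 the counts were 8 and 9, and without P30 library 1 or 2 they were 7 each.

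Among the lincRNAs higher in SBT were the nuclear RNAs Malat1 and Neat1, which are neighbours on chromosome 19. Malat1 measured 41.7, 40 and 46.6 FPKM in P30 and 64.3, 81.1 and 88.5 in SBT. All SBT libraries were higher, with a log2 fold change of 0.88 ± 0.147 (adjusted p = 0.00490, edgeR), and the result passed in all 14 alternatives. Neat1 measured 8.65, 3.76 and 13.0 FPKM in SBT, with SBT library 2 close to the P30 range of 2.17 to 3.28 and the others well above it. The log2 fold change was 1.73 ± 0.399 (adjusted p = 0.0154, edgeR). It was 2.08 without SBT library 2 (adjusted p = 5.84e-05, edgeR) and 1.61 without P30 library 3 (adjusted p = 0.0589, edgeR), where it no longer passed. Against P0 the SBT libraries of Neat1 overlapped and it was not called (log2 fold change 0.83, adjusted p = 0.138, edgeR), although without SBT library 2 it was (1.18, adjusted p = 1.37e-08, edgeR). Cyrano measured 6.16, 6.28 and 6.18 FPKM in P30 and 9.43, 6.83 and 10.2 in SBT. Its log2 fold change was 0.52 ± 0.152 (adjusted p = 0.0350, edgeR), and 7 of the 14 alternatives called it.

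Dubr, Handsdown and Gm26809 were also higher in SBT than in P30, with log2 fold changes of 0.66 ± 0.132, 0.63 ± 0.188 and 0.72 ± 0.215 (adjusted p = 0.00949, 0.0380 and 0.0374, edgeR), and Handsdown and Gm26809 passed in 8 of the 14 alternatives each. Dubr went from at most 4.17 FPKM in P30 to 7.02, 5.41 and 6.55 in SBT, and Handsdown from at most 0.773 to 0.891, 1.07 and 0.966. In both, SBT lay within or above the P0 range.

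**Figure D3:**
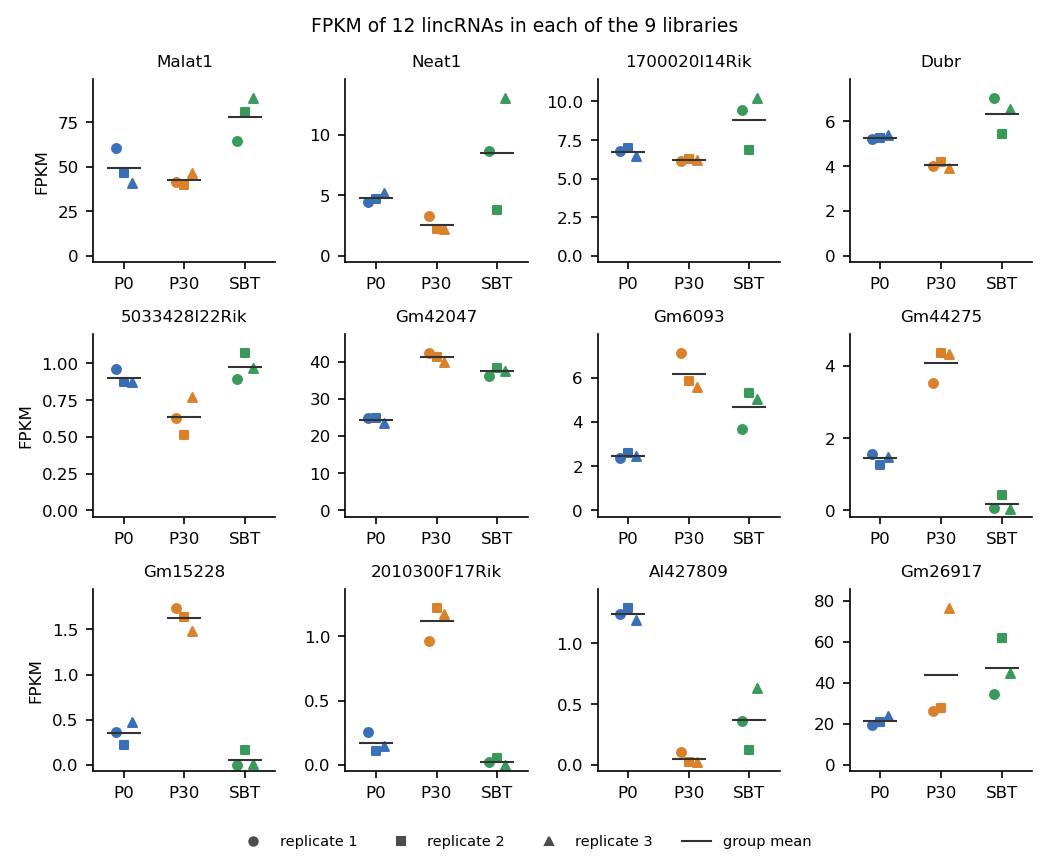
FPKM of 12 lincRNAs in each of the 9 libraries, with a marker shape for each replicate number and a line at each group mean (n = 3). Malat1 is highest in all SBT libraries, Neat1 in SBT libraries 1 and 3, Gm44275, Gm15228 and 2010300F17Rik are highest in P30 and near 0 in SBT, AI427809 is highest in P0, and Gm26917 is high in P30 library 3 and SBT library 2.

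The lincRNAs lower in SBT than in P30 held most of the small nucleolar RNA hosts among the 80. These hosts give rise to guide RNAs of ribosomal RNA modification, and their spliced remainder is often short-lived. Of the 6 members on the host list 4 fell and Snhg18 did not pass, while 2700038G22Rik fell short of 50 counts in some P30 and SBT libraries and is not among the 44. Snhg6 (chromosome 1, host of Snord87) measured 48.7, 39.3 and 31.3 FPKM in P30 and 13.1, 21.2 and 16.7 in SBT. The groups did not overlap, with a log2 fold change of -1.21 ± 0.213 (adjusted p = 0.00590, edgeR). Epb41l4aos, on chromosome 18, measured 55.8, 39.3 and 28.3 FPKM in P30 and 15.3, 18.5 and 14.5 in SBT. It fell by 1.35 on the log2 scale (SE 0.252, adjusted p = 0.00755, edgeR). Both passed in all 14 alternatives.

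Snhg12, the host of Snord99 and of H/ACA RNAs, measured 9.40, 7.17 and 3.85 FPKM in P30 and 3.32, 4.02 and 3.06 in SBT. SBT library 2 lay above P30 library 3, and the log2 fold change of -0.97 ± 0.301 only just passed (adjusted p = 0.0431, edgeR). Snhg20 went from 4.11, 2.48 and 3.70 FPKM to 1.24, 2.47 and 1.80, with SBT library 2 level with P30 library 2. Its log2 fold change was -0.89 ± 0.286 (adjusted p = 0.0482, edgeR), called in 7 of the 14 alternatives, and that of Snhg12 was called in 9. Snhg18 measured 12.1, 10.7 and 10.9 FPKM in P30 and 13.9, 10.3 and 15.2 in SBT, with a log2 fold change of 0.23 (adjusted p = 0.323, edgeR). In 2700038G22Rik, host of Snord93, SBT libraries 1 and 3 had 19 and 21 counts and SBT library 2 had 73, against 54, 37 and 61 in P30.

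Over the whole list of small nucleolar RNA hosts, 19 of the 21 in the table were tested, with no minimum beyond the filter of the fit. None was higher in SBT than in P30, 8 were lower and 11 did not pass, with a median log2 fold change of -0.76. Of all 13559 genes in that fit 16% were higher and 14% lower. The 13 hosts that are not among the 80, most of them annotated as processed transcripts, had 4 lower and a median of -0.58. Between P30 and P0 1 of the 19 was lower (Snhg18) and none was higher, and the median was 0.12, where 7.21% of all genes in the fit were higher and 9.21% lower. Between SBT and P0 1 was higher, 9 were lower and 9 did not pass, and the median was -0.70, where 17.9% of all genes were higher and 17% lower.

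Hosts of this kind often start with a C followed by a run of C and T, the 5′ terminal oligopyrimidine (TOP) start of transcripts whose fate is tied to translation. The annotated starts of 3 hosts are shown from GENCODE M21, with the leading run of C and T in capitals (Snhg6 chr1:9944079-9944118, minus strand, Snhg12 chr4:132308676-132308715, plus strand, and Snhg18 chr15:32244623-32244662, minus strand, all on GRCm38).
Snhg6: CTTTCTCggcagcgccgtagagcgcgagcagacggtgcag
Snhg12: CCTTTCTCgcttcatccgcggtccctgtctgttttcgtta
Snhg18: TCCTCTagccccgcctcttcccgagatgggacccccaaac
For Snhg6 and Snhg12 the longest transcript that starts with C and then 4 letters that are C or T was picked. Each of them also has annotated transcripts that start otherwise. No annotated transcript of Snhg18, Snhg20, Epb41l4aos or 2700038G22Rik starts in that way. The starts picked for Snhg6 and Snhg12 share the run CTTTCTC, and Snhg18 has a run that starts with T. A transcript that starts with C and then 4 letters that are C or T was annotated for 9 of the 80 lincRNAs (12 of their 249 transcripts, 4.82%), and for 2.51% of all 9101 lincRNA transcripts. The other such members include Gm42047, Pvt1 and AI427809, so the start is not limited to hosts, and annotated starts need not be those used in these cells.

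**Figure D4:**
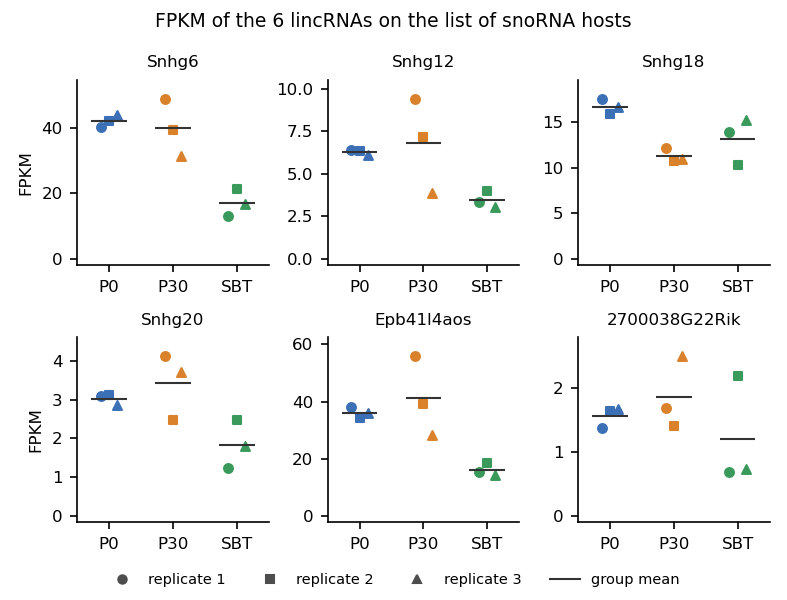
FPKM of the 6 lincRNAs on the list of small nucleolar RNA hosts in each library, with a marker shape for each replicate number and a line at the group mean (n = 3). Snhg6 and Epb41l4aos are lower in all SBT libraries than in any P0 or P30 library, in Snhg12, Snhg18 and 2700038G22Rik SBT overlaps with P30, and in Snhg20 the highest SBT value (2.47) lies just under the lowest P30 value (2.48).

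The other lincRNAs lower in SBT than in P30 were Wincr1, Gm14005, 3300005D01Rik, Gm17501 and Gm15328. Wincr1, a Wnt-induced RNA on chromosome 4, measured 41.5, 35.3 and 23.1 FPKM in P30 and 7.57, 17.3 and 8.22 in SBT. SBT library 2 was the highest of its group and P30 library 3 the lowest, and the groups did not overlap. The log2 fold change was -1.58 ± 0.342 (adjusted p = 0.0125, edgeR). Gm14005, which spans chr2:128178319-128502765 on the minus strand, measured 3.52, 3.44 and 3.90 FPKM in P30 and 0.981, 1.60 and 1.09 in SBT. It fell by 1.55 on the log2 scale (SE 0.205, adjusted p = 0.00205, edgeR). 3300005D01Rik measured 41.1, 40.6 and 37.3 FPKM in P30 and 15.8, 20.2 and 18.8 in SBT, a log2 fold change of -1.10 ± 0.121 (adjusted p = 0.00112, edgeR). Gm14005 and 3300005D01Rik passed in all 14 alternatives. Gm15328 fell by 0.73 (SE 0.222, adjusted p = 0.0403, edgeR).

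Members that met the threshold in P30 or SBT alone were again not tested. Gm44275 had 3, 22 and 2 counts in SBT against 179, 180 and 167 in P30, so SBT library 2 held more than its group and far less than P30. Ptgs2os2 had 34, 157 and 55 counts in SBT. A330074K22Rik had 19, 17 and 26 counts in P30 and 135, 61 and 109 in SBT, and D130017N08Rik had 29, 21 and 32 in P30 and 68, 70 and 68 in SBT. Zfp469 had 117, 87 and 138 counts in P30 and 46, 48 and 37 in SBT. Gm8066, on the opposite strand of the erythropoietin gene Epo, had 27, 20 and 14 counts in P30 and 54, 52 and 54 in SBT. In these 6 the counts of SBT and P30 did not overlap, although in Ptgs2os2 SBT library 2 (157) and P30 library 3 (158) were level.

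The members that met the threshold only in SBT also included 3 lincRNAs with smaller contrasts. Gm11110, which overlaps the immune ligand gene Tnfsf9 on the opposite strand, had 43, 34 and 60 counts in P0, 39, 34 and 23 in P30 and 69, 57 and 64 in SBT. Gm16001 had 36, 37 and 31 counts in P30 and 61, 78 and 57 in SBT, and 2810429I04Rik had 48, 34 and 47 in P30 and 71, 84 and 55 in SBT. In all 3 the SBT libraries lay above P30, whereas in counts Gm16001 and Gm11110 overlapped P0. Of the members that met it only in P0, Gm15675, beside the complement regulator gene Cd55, had 55, 65 and 88 counts in P0, 30, 17 and 4 in P30 and 41, 19 and 71 in SBT, and was lowest in P30 library 3. Gm19705 had 79, 56 and 61 counts in P0, 56, 34 and 12 in P30 and 27, 31 and 30 in SBT, again with its lowest value in P30 library 3. Gm21781 instead met the threshold in both P0 and SBT, with 52, 67 and 58 counts in P0 and 61, 83 and 93 in SBT. Its log2 fold change of 0.67 in SBT against P0 was not called (adjusted p = 0.0666, edgeR).

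Compared with P0, 5 of 52 lincRNAs were higher in SBT, 9 were lower and 38 did not pass (edgeR, Benjamini-Hochberg adjusted over 14015 genes). Among all genes tested 34.8% passed, and of the 10886 with 50 counts in all 6 libraries 18.9% were higher and 17.7% lower, against 9.62% and 17.3% of the 52. The medians of the log2 fold change were 0.14 and 0.00. Without SBT library 2, 29 of the 52 passed (16 higher, 13 lower), all 14 among them, and without any other single library the count was 8 or 9. This comparison shares its SBT libraries with the one against P30 and its P0 libraries with the first. Malat1 (log2 fold change 0.67 ± 0.174, adjusted p = 0.0245, edgeR), Gm42047 (0.62 ± 0.0659, adjusted p = 0.00101), Gm6093 (0.93 ± 0.153, adjusted p = 0.00458), D130017N08Rik (0.61 ± 0.168, adjusted p = 0.0302) and Gm26917 were higher. Of the 14 alternatives D130017N08Rik passed in 6 and Malat1 in 10, and Gm42047, Gm6093 and Gm26917 passed in all.

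Gm26917 lies on chromosome 17 beside CT010467.1, a gene annotated as ribosomal RNA, and measured 19.7, 20.9 and 24.1 FPKM in P0, 26.4, 27.9 and 76.7 in P30 and 34.8, 61.8 and 44.7 in SBT. The high values were in P30 library 3 and SBT library 2, the libraries that stood apart. CT010467.1 had 37, 65 and 77 counts in P0, 61, 61 and 303 in P30 and 92, 438 and 117 in SBT, high in the same libraries. The part of ribosomal RNA carry-over in Gm26917 was not tested. Against P0 its log2 fold change in SBT was 1.13 ± 0.199 (adjusted p = 0.00580, edgeR) and 0.89 without SBT library 2. In P30 it was 1.0 (adjusted p = 0.0905, edgeR) and 0.32 without P30 library 3 (adjusted p = 0.00237, edgeR).

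The members lower in SBT than in P0 were Gm14005 (log2 fold change -1.32 ± 0.20, adjusted p = 0.00344, edgeR), Snhg6 (-1.30 ± 0.160, adjusted p = 0.00172), Epb41l4aos (-1.15 ± 0.123, adjusted p = 0.00105), Wincr1 (-0.97 ± 0.30, adjusted p = 0.0421), Gm17501 (-0.86 ± 0.232, adjusted p = 0.0266), Snhg12 (-0.85 ± 0.123, adjusted p = 0.00302), 3300005D01Rik (-0.66 ± 0.101, adjusted p = 0.00365), Gm15328 (-0.66 ± 0.196, adjusted p = 0.0373) and C130083M11Rik (-0.62 ± 0.201, adjusted p = 0.0483). C130083M11Rik passed in 7 of the 14 alternatives, and Wincr1, Gm17501 and Gm15328 in 9 each. In each of the 9 every SBT library was below every P0 library once counts were scaled to library size.

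Of the microRNA hosts among the 80, Mir17hg and Mirg lay below the median level of the 80 in each group and AL805899.1 above it. Mir17hg measured 0.692, 0.895 and 1.16 FPKM in P0, 1.20, 1.22 and 0.865 in P30 and 0.468, 0.766 and 0.704 in SBT, and its SBT libraries fell below 50 counts in 2 of 3 cases. AL805899.1, which encloses miR-31, measured 5.63, 6.75 and 5.36 FPKM in P0, 7.66, 4.37 and 3.83 in P30 and 1.99, 3.81 and 2.90 in SBT. All its SBT libraries lay below all P0 libraries. Its log2 fold change in P30 against P0 was -0.15 and was not called (adjusted p = 0.719, edgeR). Mirg, an imprinted microRNA host on chromosome 12, had 106, 113 and 124 counts in P0, 87, 66 and 48 in P30 and 34, 36 and 38 in SBT, and its groups did not overlap. Of 8 microRNA hosts tested on the wider list, 1 was lower in P30 than in P0, 2 were higher in SBT than in P30, and 2 were higher and 2 lower in SBT than in P0. Of all genes tested 16.4%, 30.0% and 34.8% passed in either direction in these comparisons. With 8 genes, nothing particular to the list can be read from its counts. The libraries do not measure mature microRNAs.

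The other functional lists were short, and their counts are read beside the 16.4% (P30 against P0), 30.0% (SBT against P30) and 34.8% (SBT against P0) of all genes tested that passed in either direction. With so few genes a list, nothing particular to a list can be read from them. Of nuclear-retained RNAs 4 of 5 were tested. In P30 against P0, 2 were lower, in SBT against P30, 2 were higher, and in SBT against P0, 1 was higher. These were Neat1 and Malat1 together with Firre, which fell in P30 and is not among the 80. Of 5 RNAs linked to p53, Myc and growth none passed in P30, 1 was higher in SBT than in P30 and 1 was lower in SBT than in P0. Pvt1, the member on that list, measured 0.975 ± 0.111, 1.18 ± 0.125 and 1.09 ± 0.144 FPKM and passed in no comparison. Of 4 cytoplasmic RNAs tested 1 was lower in P30 (Norad), 1 was higher in SBT than in P30 (Cyrano) and none passed between SBT and P0.

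Of 6 long noncoding RNAs known in cardiac, lateral mesoderm and smooth muscle development and found by symbol, 4 were tested. Names on this list that were not found, among them Morrbid and Wisper, were not traced to other symbols. Some of these RNAs may therefore be among the 80 under another symbol. Fendrr and AV026068, annotated as processed transcripts and not among the 80, gave every call among these 4. Both were lower in P30 than in P0, AV026068 was higher in SBT than in P30, and Fendrr was lower in SBT than in P0. The other RNAs of these 4, the lincRNAs Bvht and Carmn, passed in no comparison. The member found on this list by symbol is Bvht (Braveheart), which acts in cardiac lineage commitment. It measured 6.71, 5.53 and 7.60 FPKM in P0, 6.45, 7.57 and 4.28 in P30 and 3.67, 4.29 and 6.49 in SBT, and the groups overlapped. The lists of Hox cluster, TGF-β linked and X inactivation RNAs held no member of the 80. On them 1 or 2 genes could be tested per comparison, with 0, 1 and 1 lower in P30, none called between SBT and P30, and 1, 1 and 0 lower in SBT than in P0.

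Many lincRNAs share a promoter region with a protein-coding gene, so each was set beside its nearest protein-coding neighbour. In P30 against P0, the log2 fold changes of 38 of 59 pairs (64.4%) had the same sign, called or not. In SBT against P30 it was 35 of 59 (59.3%) and in SBT against P0 31 of 61 (50.8%). Leaving out protein-coding models with Gm symbols gave 67.2%, 57.1% and 48.5% of 64, 63 and 66 pairs. Protein-coding genes and their own nearest protein-coding neighbours, also without such models, had the same sign in 53.4%, 55.3% and 56.2% of pairs. These pairs include lincRNAs that met the threshold in only 1 of the groups compared. The choice of members favoured the sign of these lincRNAs but did not fix it. 2700038G22Rik, which met the threshold in P0 alone, had a log2 fold change of 0.23 in P30 against P0. Among lincRNAs with 50 counts in every library of both groups the shares were 63.4%, 62.2% and 43.5% of 41, 37 and 46 pairs, and among protein-coding genes held to the same threshold 53.1%, 54.8% and 56.1%. These shares carry no test, and overlapping pairs may share reads. For the 14 members with divergent starts within 2000 bases the counts were 10, 10 and 6 of 14, and of those over the threshold in both groups 5 of 6, 5 of 6 and 3 of 9.

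**Figure D5:**
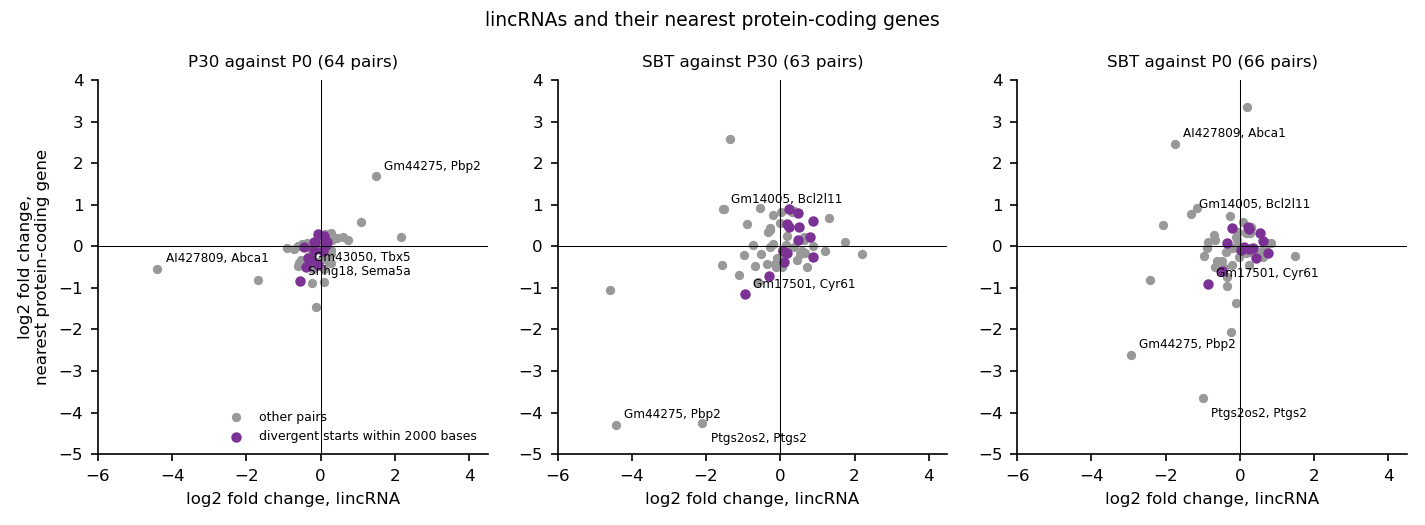
log2 fold change of each lincRNA (x axis) and of its nearest protein-coding gene (y axis, gene models with a Gm symbol left out) in the 3 comparisons, each point 1 pair, with purple points for divergent starts within 2000 bases. Gm44275 and Pbp2 lie together at the upper right in P30 against P0 and at the lower left in both SBT panels, and AI427809 and Abca1 lie on opposite sides of 0 in SBT against P0.

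Gm17501 starts beside Cyr61, which encodes a secreted matrix protein that responds to growth factors, 331 bases away on the opposite strand of chromosome 3. Gm17501 measured 13.0, 12.4 and 12.5 FPKM in P0, 13.3, 12.4 and 14.8 in P30 and 5.06, 9.87 and 5.72 in SBT. Cyr61 had 26872, 21902 and 20458 counts in P30 and 8436, 16498 and 9124 in SBT, so SBT library 2 was highest of its group in both genes. The log2 fold changes in SBT against P30 were -0.95 ± 0.238 for Gm17501 (adjusted p = 0.0202, edgeR) and -1.16 for Cyr61 (adjusted p = 0.00484). Without SBT library 2 that of Gm17501 was -1.31, and without P30 library 3 it was -0.90 and did not pass (adjusted p = 0.0630, edgeR). Between P30 and P0 the value of Gm17501 was 0.08 (adjusted p = 0.560, not past the threshold) and Cyr61 rose by 0.25 (adjusted p = 0.0202, edgeR).

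The stretch beside the deposited start of Cyr61 is shown because the genes point apart there, and came from the promoter entry of Gm17501. RefSeq places the start of Gm17501 nearer to Cyr61 than the deposited annotation does. The stretch ends with the entry, 50 bases after that RefSeq start, so its last letters, GGAATG among them, lie inside Gm17501 by RefSeq. Its place is GRCm38.p6, chr3:145649982-145650126, plus strand, the reading strand of Gm17501.
Gm17501 and Cyr61: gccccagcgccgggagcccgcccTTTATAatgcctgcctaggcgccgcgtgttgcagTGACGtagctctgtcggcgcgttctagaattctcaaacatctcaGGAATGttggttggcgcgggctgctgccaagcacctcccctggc
Capitals mark TATAAA, which reads on the minus strand as for Cyr61, TGACG, the core of the cyclic AMP response element, and GGAATG, a motif of TEAD factors. The 3 motifs were sought on both strands and do not overlap here. Of all 32851 promoter entries, which run from 250 bases before to 50 after a start, 13.6% hold TATAAA, 20.8% TGACG and 14.7% GGAATG. Of the 43 members with an entry under their symbol, 4, 17 and 11 hold them in any of their entries. The percentages count entries and not genes, so they are not like for like with these counts. The matches describe letters and not bound sites.

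Snhg18 starts 148 bases from Sema5a, a gene for an axon guidance protein, again on opposite strands. Snhg18 had 636, 470 and 576 counts in P0 and 364, 262 and 250 in P30. Sema5a had 1961, 1523 and 1716 counts in P0, 848, 862 and 546 in P30 and 1615, 1230 and 1637 in SBT. Sema5a fell by 0.84 on the log2 scale in P30 against P0 (adjusted p = 0.00237, edgeR), beside -0.57 for Snhg18, and was higher in SBT than in P30 by 0.90 (adjusted p = 0.0153, edgeR), where Snhg18 did not pass. The 147 bases between them (GRCm38.p6, chr15:32244663-32244809, minus strand, the reading strand of Snhg18) hold none of the 3 motifs, so no capitals are shown.
Snhg18 and Sema5a: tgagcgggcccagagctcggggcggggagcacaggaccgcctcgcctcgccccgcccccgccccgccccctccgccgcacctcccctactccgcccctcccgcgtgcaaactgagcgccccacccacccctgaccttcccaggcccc

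Gm44275 and Pbp2, 1750 bases apart on the same strand, had a like pattern. Pbp2 had 36, 37 and 45 counts in P0, 112, 93 and 88 in P30 and 1, 10 and 5 in SBT. It rose by 1.68 in P30 against P0 (adjusted p = 0.000252, edgeR), beside 1.48 for Gm44275, and its log2 fold change in SBT against P30 was -4.29 (adjusted p = 0.000892, edgeR). Pairs on 1 strand at such a distance can share read-through reads, and this was not tested. Gm43050 starts 748 bases from Tbx5, a heart transcription factor gene. Gm43050 had 71, 54 and 67 counts in P0 and 56, 30 and 28 in P30 and was not tested, whereas Tbx5 fell by 0.50 (adjusted p = 0.0162, edgeR). Hand2 fell by 0.33 in P30 (adjusted p = 0.0101, edgeR) and its neighbour Handsdown by 0.52, as given above, while in SBT against P30 Hand2 did not pass (0.18, adjusted p = 0.204).

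Pairs farther apart, or with different calls, are given by their values. Gm14005 fell in SBT as described, while Bcl2l11, which encodes the apoptosis factor Bim and ends 15772 bases away, had 241, 215 and 210 counts in P30 and 437, 481 and 430 in SBT. Bcl2l11 rose by 0.90 against P30 and by 0.78 against P0 (adjusted p = 0.00213 and 0.00162, edgeR). Snhg20 fell by 0.89 in SBT against P30 and Sec14l1 rose by 0.54 (adjusted p = 0.0101, edgeR). Abca1, 101461 bases from AI427809, had 1886, 1720 and 809 counts in P30 and 15829, 4777 and 15634 in SBT, a log2 fold change of 3.00 (adjusted p = 0.00530, edgeR). AI427809 had at most 5 counts in P30 and at most 27 in SBT, while its P0 level of 61 to 72 counts went with 2454 to 3001 counts of Abca1. Lockd, 3579 bases from Cdkn1b, which encodes a cell cycle inhibitor, passed in no comparison (0.08 in P30 against P0, adjusted p = 0.734), whereas Cdkn1b fell by 0.55 in P30 against P0 and rose by 0.76 in SBT against P30 (adjusted p = 0.00212 and 0.0122, edgeR). Ptgs2, 50816 bases from Ptgs2os2, had 17527, 14108 and 5064 counts in P30 and 218, 1658 and 279 in SBT, with the lowest P30 value in library 3 and the highest SBT value in library 2, as in Ptgs2os2. The log2 fold changes of that pair had the same sign in all 3 comparisons.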

How the data were processed

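RNA of 9 libraries (3 each of P0, P30 and SBT) was sequenced by the authors. The submitters' processing notes name TopHat2 2.0.9, Bowtie2 2.0.6 and mm9, whereas gene IDs and coordinates in the table match GRCm38: 79 of the 80 lincRNAs have the start and end of GENCODE M21. The counting program and its strand setting are not given in the sources used here. The labels and the methods of the study name different library kits, so selection by poly(A) tail is not certain for these libraries, and the methods give 2 replicates where 3 libraries are deposited. The deposited table holds raw counts per gene and FPKM, which the authors computed from those counts, gene length and library total. Its columns of the authors' own comparisons hold log2 fold changes and p-values and were not used. In 27 rows a gene symbol that had been turned into a date was restored from its ID.

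The members and lists were chosen with earlier results of these data known. Counts were tested between pairs of groups with edgeR 4.0.16 (R 4.3.3; TMM scaling, filterByExpr with a minimum count of 10 and a total of 15, quasi-likelihood F test, Benjamini-Hochberg adjustment over all genes tested, threshold 0.05), with only the libraries of both groups in the fit. Calls were counted for lincRNAs with 50 counts in every library of both groups. Fold changes are log2 with the standard error, and values are FPKM or counts. Bounds used a floor of 3 counts per library and cover counting error only. On simulated counts with 200 genes changed by 1 on the log2 scale, 172 (P30 against P0, 13752 genes), 143 (SBT against P30, 13559 genes) and 161 (SBT against P0, 14015 genes) were recovered, with 19, 7 and 8 false calls.

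Genes named were the members on the lists, the 8 that gained most and the 8 that lost most in each comparison, taken from those without overlap between libraries of both groups, the 8 with the highest mean FPKM in each group, the 3 on either side of the count threshold, the 5 that differed most between P30 library 3 and the other P30 libraries, and the nearest protein-coding genes. Dubr, Gm17501, Gm26809, Lockd, C130083M11Rik, AL805899.1, Gm15328, Gm1976 and Gm43050 were named after their values were seen. Alternatives were DESeq2 1.42.0, other scalings, other filters, all 9 libraries in the fit, a replicate block, limma 3.58.1 on log2(FPKM + 0.1), and each library left out. The neighbours without Gm symbols, and those of lincRNAs over the threshold in both groups, were added after seeing the data. Neighbours came from the coordinates and gene types of the deposited annotation. Transcripts came from GENCODE M21, and promoters and microRNAs from RefSeq (GRCm38.p6), matched by symbol for 43 of 80.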

Additional observations from a re-analysis of the deposited data

How the results depend on the processing

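The count of lincRNAs called between P30 and P0 (10) was 17 with no filter on low counts, 6 with all 9 libraries in the fit, 3 with a log2 fold change of at least 1 and 6 among lincRNAs that overlap no other gene. Leaving out 1 library gave 6 (without P0 library 3) to 22 (without P30 library 3). For SBT against P30 (15), it was 6 with a log2 fold change of at least 1 and 23 at a threshold of 20 counts, and leaving out 1 library gave 7 (without P30 library 1 or 2) to 23 (without SBT library 2), with 8 and 9 without SBT libraries 1 and 3. For SBT against P0 (14), it was 4 with a log2 fold change of at least 1, 8 among lincRNAs that overlap no other gene and 28 at 20 counts, and leaving out 1 library gave 8 (without P0 library 2 or 3) to 29 (without SBT library 2), with 9 without P0 library 1, SBT library 1 or SBT library 3. A stricter fold or a smaller set of lincRNAs can only lower a count, and for the other changes, in either direction, the cause was not tested. The replicate numbers share only a number: deviations of same-numbered libraries correlated at -0.299 to 0.042, and with a replicate block 11, 10 and 10 lincRNAs were called. The share of library counts moved to 0.109%, 0.106% and 0.118% without Malat1 and Gm42047, and to 0.180% and 0.189% of the FPKM sum in P0 and P30. A threshold of 20 counts gave 164 members and one of 100 gave 44. In P30 against P0, 3 values that were not called changed sign: Epb41l4aos to -0.10 and Snhg12 to -0.20 without P30 library 1 (each up to 0.40 without P30 library 3), and Snhg6 to 0.06 without P30 library 3 (down to -0.27 without P30 library 1). Of the values of named genes under the alternatives, 682 kept their direction and their side of the threshold, 100 no longer passed and 27 passed newly. With 3 libraries a group, a difference that missed the threshold is not shown to be absent.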
